A study of Homo sapiens with 24 samples.

Results

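The 10 genes described here encode neuronal adhesion molecules of the immunoglobulin superfamily and were followed over time in D425 cells after a hairpin against OTX2 was switched on. They are the contactins CNTN1, CNTN2, CNTN3 and CNTN4, the L1 family genes L1CAM, NRCAM, CHL1 and NFASC, and the neural cell adhesion genes NCAM1 and NCAM2. The 10 genes, of 19775 with a named probe set, were chosen by name, and all 29 probe sets that the platform annotation gives to exactly 1 of them were taken, of 54675 on the array. A probe set is a group of short probes that together give 1 signal. Of the 29 probe sets, 18 in 9 genes exceeded the array's own median signal in at least 3 arrays and were tested among all 33803 probe sets that did so. CHL1 had none. The level at 96 h against 0 h was among the results known when the genes were chosen, so it is given below as a description with no test, and the tests use the arrays at 8, 16, 24 and 48 h.

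D425 is an established human medulloblastoma cell line, a model of a cerebellar tumour, and OTX2 is a homeobox transcription factor of the embryonic brain. The arm called shOTX2 holds cells whose hairpin against OTX2 is induced by doxycycline, as 3 independent courses of 6 arrays each. The control arm holds D425 cells named only as control, in 1 course of 6 arrays, and the labels do not describe their construct. All cells grew in MEM with 10% fetal calf serum, were plated a day ahead of the drug and were sampled at 0, 8, 16, 24, 48 and 96 h after it. Both arms thus received doxycycline. The control arm has 1 array a time, so its values carry no spread. The labels do not say whether the shOTX2 cells were 1 clone or a pool. The arrays read bulk RNA, in which fewer cells of a type and less RNA per cell cannot be told apart.

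Contactins are held in the outer face of the membrane by a lipid anchor, whereas L1 family members cross the membrane and bind ankyrins, which tie them to the spectrin skeleton below it. Both bind each other and other cells' surface proteins along growing axons, where they steer growth, bundling and, later, the layout of the myelinated axon around the node of Ranvier. CNTN2 and L1CAM are known from the cerebellum, where granule neurons of rodents carry them once they leave the cell cycle and extend axons. NCAM1 and NCAM2 mediate adhesion between neural cells, and NCAM1 also carries polysialic acid.

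The upstream sequences of CNTN2 and L1CAM are shown because these 2 genes had the largest changes described below. Each is the stretch just before the most upstream start found for the gene in a table of RefSeq promoters of the GRCh38.p14 build, 5′ to 3′ on the gene's strand. The L1CAM stretch lies inside the span that RefSeq gives the whole gene. The first lies at chr1:205042699-205042948 on the plus strand and the second at chrX:153876015-153876264 on the minus strand. Capitals mark CAGCTG or CAGATG, hexamers of the E-box type, which were searched on both strands together with TAATCC, the core of OTX-type homeobox sites. None of these motifs overlapped another in these 2 windows.
CNTN2 upstream: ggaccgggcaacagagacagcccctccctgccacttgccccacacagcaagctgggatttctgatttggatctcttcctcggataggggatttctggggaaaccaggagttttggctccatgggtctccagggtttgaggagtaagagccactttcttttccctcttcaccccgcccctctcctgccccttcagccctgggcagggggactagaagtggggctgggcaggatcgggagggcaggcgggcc
L1CAM upstream: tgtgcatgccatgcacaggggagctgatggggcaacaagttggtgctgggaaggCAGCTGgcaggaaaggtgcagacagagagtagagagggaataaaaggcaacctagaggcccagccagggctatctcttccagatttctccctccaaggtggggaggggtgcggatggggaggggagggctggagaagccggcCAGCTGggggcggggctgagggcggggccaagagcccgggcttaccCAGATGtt

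The table held 18 such windows for 9 of the 10 genes, each of 250 bases. TAATCC was in 0 of the 18, and 5.62% of all 35116 windows of this length held it. CAGCTG was in 3 of the 18 windows, beside 14.0% of all windows, and CAGATG in 4 of the 18, beside 12.2%. The 2 L1CAM windows overlap and share a CAGCTG and a CAGATG, which are counted in both. The GC content was 61.2% and 64.4% in the 2 CNTN2 windows, and 62.4% and 62.8% in the 2 L1CAM windows, beside a median of 58% over all windows. These matches describe letters only, and say nothing of whether a factor binds. CNTN2 and NFASC are neighbouring protein-coding genes on chromosome 1, while CHL1 and CNTN4 both neighbour CNTN6 on chromosome 3.

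Each array had a median signal between 16.3 and 20.6, so a signal near 20 is about that of the typical probe set, and log2 changes below are of signal + 16. The ratio of the 3′ to the 5′ actin probe sets, a sign of RNA or labelling quality, was 1.42 ± 0.0836 in shOTX2 course 1, 2.07 ± 0.198 in course 2 and 1.91 ± 0.0572 in course 3, against 1.40 ± 0.0858 in the control course (SD, n = 6 arrays each). The brighter OTX2 probe set, 242128_at, ran from 3596 to 4683 in the 15 shOTX2 arrays after induction (median 4083), against 4902 to 5357 in the control course. At 0 h it was 4659 ± 217 in shOTX2 cells (SD, n = 3) against 4964 in the control course, and so was already lower. The other, 231731_at, was 3295 ± 275 at 96 h against 3027 ± 155 at 0 h in shOTX2 cells (SD, n = 3 each). The labels do not say where the hairpin binds relative to these probes, so this level does not check the labels. Of 8 genes taken as markers of D425, such as MYC and the photoreceptor factor CRX, 7 had a probe set and 6 exceeded the array median in all 24 arrays, whereas BARHL1 did so in none. Summed signals of 5 mesenchymal markers were 99.9 to 308.5 in shOTX2 arrays at 48 and 96 h against 39.2 to 94.9 at 0 and 8 h. In the control course they were 71.1 to 92.1 against 95.3 to 111.6. PDGFRB exceeded the array median in 23 arrays, DCN in 11, COL1A2 in 6, COL3A1 in 4 and LUM in none. Those of 4 epithelial markers were 136.2 to 419.9 against 70.9 to 154.6 in the shOTX2 arm, and 51.8 to 123.1 against 71.2 to 90.7 in the control course, with KRT18 and KRT8 above the median in all 24 arrays and EPCAM and CDH1 in none. The part of these in the results below was not tested. Of 5 astrocyte markers, SLC1A2 exceeded the array median in 24 arrays, ALDH1L1 in 23 and GJA1 in 3, and GFAP and AQP4 in none. Of 4 oligodendrocyte markers with a probe set, MBP exceeded it in 17 arrays, MAG in 7, MOG in 5 and MOBP in 3. Of 4 endothelial markers PECAM1 did so in 21 arrays and CDH5, KDR and VWF in none, and of 3 immune markers AIF1 did so in 1 array and PTPRC and CD14 in none. Summed signals in shOTX2 arrays at 48 and 96 h against 0 and 8 h were 285 to 470.8 against 411.2 to 821.2 for the astrocyte list and 51.9 to 84.5 against 43.7 to 59.3 for the oligodendrocyte list. For the endothelial list they were 38.8 to 55.9 against 30.2 to 42.3, and for the immune list 5.2 to 29.6 against 10.1 to 28.5. The control course gave 423.5 to 463.4 against 422.4 to 429.5 (astrocyte) and 58.3 to 81.2 against 39 to 85.7 (oligodendrocyte). It gave 38.1 to 54.8 against 31.3 to 36.7 (endothelial) and 15 to 16.8 against 14.7 to 18.7 (immune). Of 2 Schwann cell markers with a probe set, PRX exceeded the array median in 4 arrays and PMP2 in none. Their sums were 6.6 to 30.9 against 6.4 to 19.3 in the shOTX2 arm. Those of the control course were 20.4 to 23.5 against 12.6 to 21.

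**Figure D1:**
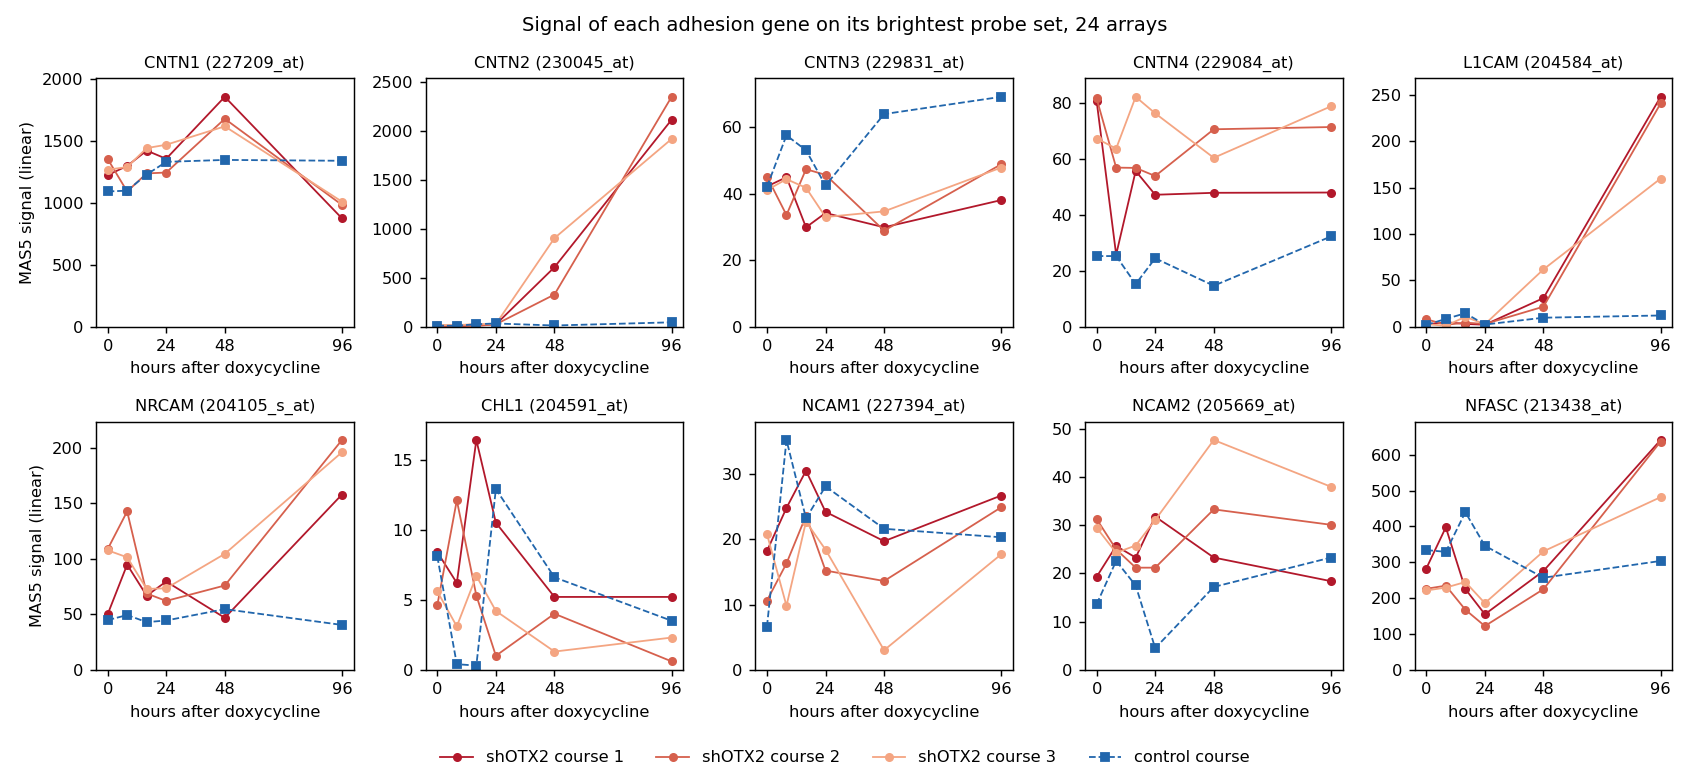
MAS5 signal (linear, each panel with its own axis) of the 10 adhesion genes against hours after doxycycline, on the probe set with the highest mean over the 24 arrays; red lines are the 3 shOTX2 courses and the dashed blue line is the control course. Up to 24 h the shOTX2 courses reach at most 25.9 for CNTN2 and 10.6 for L1CAM, and at 96 h they lie at 1916 to 2346 and 160 to 248, whereas the control course reaches only 43.6 for CNTN2 and 14.4 for L1CAM.

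CNTN2, whose product (TAG-1) is a contactin of outgrowing and parallel-fibre axons, had the largest change among the 10 genes. On its brighter probe set, 230045_at, courses 1, 2 and 3 of the shOTX2 arm had signals of 0.8, 5.2 and 17.6 at 0 h, and 0.7, 8.5 and 14.9 at 8 h. They had 15.2, 6.5 and 25.9 at 16 h, followed by 22.5, 23.2 and 25.7 at 24 h. The signals were 606, 327 and 903 at 48 h, then 2112, 2346 and 1916 at 96 h. All 6 arrays at 48 and 96 h lay above the 12 earlier ones, with no overlap. Each of the 3 courses rose from 24 to 48 h and again to 96 h. Their order changed, since course 2 was the lowest at 48 h and the highest at 96 h. In the control course the same probe set gave 9.1, 8.6, 24.1, 31.6, 11.2 and 43.6 over the 6 times.

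On 230045_at, CNTN2 rose by 4.64 ± 0.32 (SE) at 48 h against 8 h in the shOTX2 arm, with an adjusted p of 1.44e-08 in limma over all 33803 probe sets. Its second probe set, 206970_at, rose by 2.77 ± 0.24 (adjusted p = 2.20e-07), with signals of 128, 85.3 and 121 at 48 h against 2.2, 3.4 and 1.8 at 8 h. That probe set passed the filter only through the shOTX2 arrays at 48 and 96 h, so a difference was built into its inclusion. From 8 to 48 h the control course changed by 0.14 on 230045_at and -0.24 on 206970_at. The change in the shOTX2 arm exceeded that in the control course by 4.50 ± 0.64 on 230045_at (adjusted p = 0.000578) and by 3.01 ± 0.48 on 206970_at (adjusted p = 0.00141). This test takes the single control arrays to vary as the shOTX2 arrays do. Before 48 h no change was called: 24 h against 8 h gave 0.77 ± 0.32 on 230045_at, with an adjusted p of 0.291. With the course as a block the adjusted p was 0.0526. The signal was higher in 3 of 3 courses, at 22.5 to 25.7 against 0.7 to 14.9, with no overlap. The control course was higher too, at 31.6 at 24 h against 8.6 at 8 h, so this rise was not particular to the shOTX2 arm.

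At 96 h CNTN2 averaged 2125 ± 215 on 230045_at in shOTX2 cells, against 612 ± 288 at 48 h and 7.87 ± 8.71 at 0 h (SD, n = 3 each). On the log2 scale, 96 h was higher by 6.54 ± 0.32 (SE) than 0 h and by 1.88 ± 0.32 than 48 h. The order of the shOTX2 group means was thus 96 h, 48 h, 24 h, 16 h, 8 h and 0 h. Up to 24 h, neighbours in this order differed by less than the larger of their SDs.

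CNTN1, a contactin of axons and of the junctions beside the node of Ranvier, was detected throughout and was highest at 48 h. On 227209_at the 3 shOTX2 courses had 1224, 1355 and 1268 at 0 h, followed by 1298, 1092 and 1288 at 8 h. They had 1422, 1238 and 1442 at 16 h, followed by 1356, 1244 and 1469 at 24 h. The signals were 1856, 1678 and 1618 at 48 h, then 874, 983 and 1010 at 96 h. Every array at 48 h lay above all other shOTX2 arrays, and every array at 96 h lay below them. The control course ran from 1091 to 1346, with 1098 at 8 h, 1346 at 48 h and 1340 at 96 h.

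CNTN1 rose at 48 h against 8 h in shOTX2 cells on 3 of its 4 probe sets. The changes were 0.48 ± 0.099 (SE) on 227209_at (adjusted p = 0.00139), 0.81 ± 0.17 on 227202_at (adjusted p = 0.00190) and 0.82 ± 0.19 on 211203_s_at (adjusted p = 0.00299). The fourth, 1554784_at, gave 0.30 ± 0.20 (adjusted p = 0.299). Without course 2, the call on 211203_s_at was lost (0.80, adjusted p = 0.0626). The control course moved by 0.29, 0.04 and 0.26 on the 3 probe sets called, and the difference between the arms was not called on any of the 4 (adjusted p from 0.226 to 0.804). With the course as a block, that difference was called on 227202_at (0.77, adjusted p = 0.0352).

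By 96 h the signal was below that of 48 h on all 4 CNTN1 probe sets, by 0.61 to 0.97 on the log2 scale. Against 0 h the change at 96 h was -0.42 ± 0.099 (SE) on 227209_at and -0.34 ± 0.19 on 211203_s_at, whereas 227202_at and 1554784_at gave 0.10 ± 0.17 and -0.06 ± 0.20. On 227209_at the mean was 956 ± 71.6 at 96 h against 1282 ± 66.7 at 0 h (SD, n = 3 each). The group means at 0, 8, 16 and 24 h ran from 1226 to 1367, and neighbours in their order differed by less than the larger of their SDs.

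CNTN3 and CNTN4, contactins whose products also sit on axons, gave no call at any time. CNTN3 on 229831_at ranged from 28.9 to 48.9 in the shOTX2 arm (means of 31.2 ± 3.10 at 48 h and 41.0 ± 6.42 at 8 h) and from 42.1 to 69.2 in the control course. Its change at 48 h against 8 h was -0.27 ± 0.16 (SE, adjusted p = 0.251). The dimmer CNTN4 probe set, 237177_at, was near or below the array medians. It ran from 15.8 to 27.5 in the shOTX2 arm and from 3.7 to 13.8 in the control course. This gap was present at 0 h, with 23.9 ± 3.06 in shOTX2 cells (SD, n = 3) against 3.7. CNTN4 on 229084_at had 80.6, 81.5 and 67.2 in the 3 shOTX2 courses at 0 h, and 25.7, 56.8 and 63.6 at 8 h. From 16 h on, its shOTX2 signals ran from 47.1 to 82.1, against 14.6 to 32.2 over all 6 control arrays. The single overlap with the control course was course 1 at 8 h. Where it was tested, at 8 h, the arms differed by 0.60 (adjusted p = 0.657).

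L1CAM, the founding member of its family and a guide of axon growth, was at most 10.6 in shOTX2 cells up to 24 h and higher than that in all 3 courses at 48 and 96 h. Its probe set 204584_at gave 2.4, 8.0 and 2.7 in the 3 shOTX2 courses at 0 h and 4.7, 1.9 and 0.8 at 8 h. It gave 2.9, 4.3 and 10.6 at 16 h, followed by 2.0, 2.8 and 2.5 at 24 h. The signals were 30.8, 21.5 and 61.8 at 48 h, then 248, 241 and 160 at 96 h, so course 2 at 48 h was only just above the array medians. The 6 late arrays lay above the 12 earlier ones with no overlap, and above the control course, which had 1.8, 8.3, 14.4, 2.2, 9.6 and 12. Only on these 6 arrays did the probe set exceed the array median, and it was kept through them. The separation was thus partly built in and is a description.

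At 48 h against 8 h, L1CAM rose by 1.49 ± 0.24 (SE, adjusted p = 0.000167) in the shOTX2 arm, and it did so in all 3 courses. This probe set too passed the filter only through the shOTX2 arrays at 48 and 96 h. The control course changed by 0.08 over the same times. The difference between the arms, 1.41 ± 0.48, was not called (adjusted p = 0.101). At 96 h the mean was 216 ± 49.0, against 38.0 ± 21.1 at 48 h and 4.37 ± 3.15 at 0 h (SD, n = 3 each). On the log2 scale 96 h was higher by 3.5 ± 0.24 (SE) than 0 h and by 2.15 ± 0.24 than 48 h. On this scale L1CAM changed by 1.49 between 8 and 48 h and by 2.15 between 48 and 96 h. CNTN2 changed by 4.64 and 1.88 over these steps, and the 2 steps were not tested against each other. The constant added to the signal shrinks the first L1CAM step most, since the mean was only 2.47 ± 2.01 (SD) at 8 h. Which L1CAM step is the larger thus depends on that constant, and no difference in timing from CNTN2 is read from it. The other L1CAM probe set, 204585_s_at, was not kept: it had 18.3, 12.8 and 21.8 in shOTX2 cells at 96 h, against 3.9, 17.9 and 3.1 at 0 h.

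**Figure D2:**
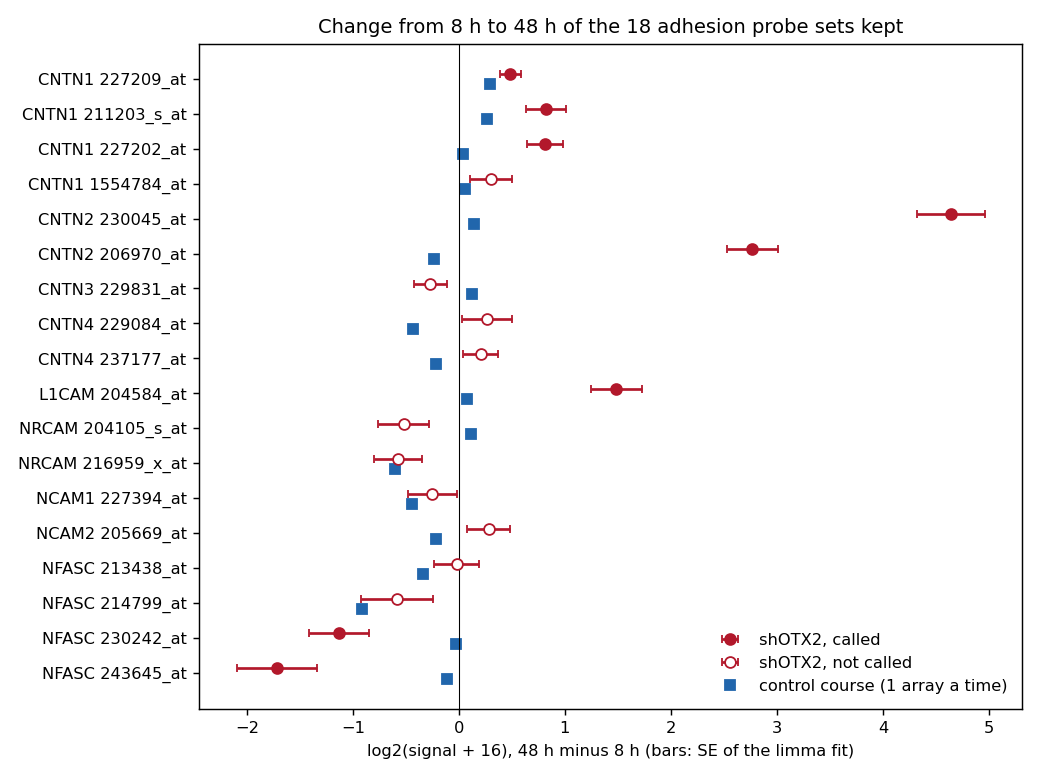
Change at 48 h against 8 h on the log2(signal + 16) scale for the 18 adhesion probe sets tested: red circles are the shOTX2 arm (3 courses, bars are the SE of the limma fit, filled where the adjusted p is under 0.05) and blue squares are the control course with 1 array a time. The 2 CNTN2 probe sets lie farthest to the right at 4.64 and 2.77, and 2 NFASC probe sets lie farthest to the left at -1.72 and -1.13.

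NFASC, which encodes neurofascin, a component of the axon initial segment and the node of Ranvier, fell by 24 h in shOTX2 cells on 2 of its 4 probe sets. Probe set 243645_at had 118.9, 82.0 and 53.5 in the 3 courses at 8 h, followed by 39.1, 30.2 and 10.1 at 16 h. The signals were 7.9, 4.2 and 22.6 at 24 h, then 24.6, 5.3 and 13.8 at 48 h. Each course was lower at 16, 24 and 48 h than at 8 h, and no array at these later times reached those at 8 h. At 0 h the shOTX2 arrays ran from 32.8 to 130.1, and the lowest of these lay within the range at 16 h. The control course gave 60.7, 72.1, 50.2 and 54.9 at 8, 16, 24 and 48 h. The brightest probe set, 213438_at, ran from 221.2 to 282.5 at 0 h and had 397, 235 and 229 at 8 h. It had 225, 168 and 245 at 16 h, followed by 155, 122 and 186 at 24 h. The control course had 329, 440 and 346 at 8, 16 and 24 h.

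At 24 h against 8 h the change was -1.87 ± 0.38 (SE, adjusted p = 0.00945) on 243645_at and -0.81 ± 0.21 (adjusted p = 0.0468) on 213438_at. The other probe sets gave -1.15 ± 0.34 on 214799_at (adjusted p = 0.0889) and -1.0 ± 0.28 on 230242_at (adjusted p = 0.0678). With the course as a block, these 2 were also called (adjusted p = 0.000205 and 0.0121). The call on 213438_at was lost under 8 of the 12 alternatives, and that on 243645_at without course 2 (adjusted p = 0.399). At 16 h against 8 h no NFASC probe set was called, and with the block 214799_at (-1.04, adjusted p = 0.00154) and 243645_at (-1.26, adjusted p = 0.0181) were.

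After 24 h the NFASC probe sets differed in how they stood against 8 h. At 48 h, 2 were still lower than at 8 h: 243645_at by -1.72 ± 0.38 (SE, adjusted p = 0.00241) and 230242_at by -1.13 ± 0.28 (adjusted p = 0.00577). Both calls were lost without course 2 (-1.48, adjusted p = 0.109, and -0.73, adjusted p = 0.221). Probe set 213438_at stood at 276, 225 and 330 at 48 h and was not called (-0.02 ± 0.21, adjusted p = 0.959), and without course 1 its change was 0.22. Probe set 214799_at gave -0.59 ± 0.34 (adjusted p = 0.242), which was called with the block (adjusted p = 0.0127). The control course was also lower on 214799_at, with 151, 91.6, 83.6 and 72.8 at 8, 16, 24 and 48 h, a change of -0.91 over these times, and the difference between the arms was 0.33 (adjusted p = 0.855). None of the 4 was called for the difference between the arms (adjusted p from 0.249 to 0.855).

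Between 48 and 96 h the mean rose on all 4 probe sets, from 277 on 213438_at, 65.9 on 214799_at, 29.6 on 230242_at and 14.6 on 243645_at. At 96 h they differed in direction against 0 h. The mean of 213438_at was 586 ± 90.8, against 243 ± 34.1 at 0 h, and that of 214799_at was 127 ± 56.1 against 88.1 ± 41.4. For 230242_at it was 60.3 ± 22.2 against 96.9 ± 42.0, and for 243645_at 27.0 ± 5.80 against 84.0 ± 48.9 (SD, n = 3 each). On the log2 scale these are 1.21 ± 0.21, 0.46 ± 0.34, -0.52 ± 0.28 and -1.09 ± 0.38 (SE). On 213438_at all 3 arrays at 96 h, at 641, 636 and 482, lay above every other shOTX2 array. In the control course 213438_at was 304 at 96 h and 334 at 0 h, and 243645_at was 25.4 at 96 h and 75.5 at 0 h, so 243645_at was lower at 96 h there too. Which NFASC transcripts each probe set reads was not examined here.

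**Figure D3:**
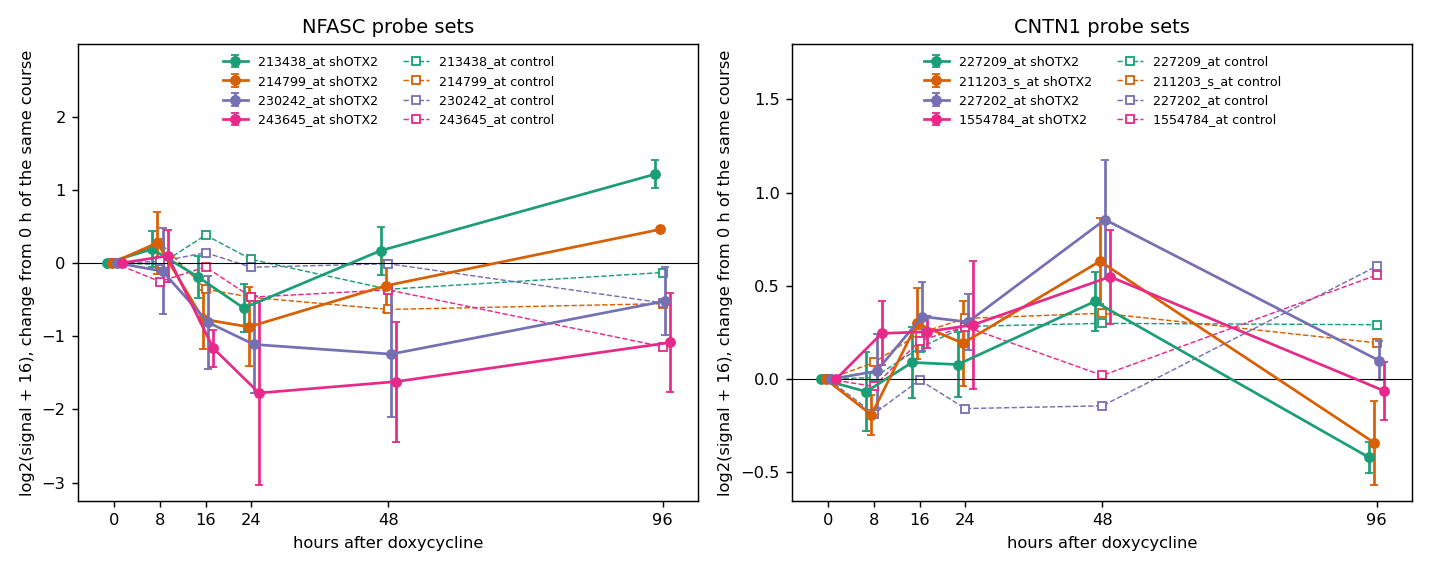
Change in log2(signal + 16) from 0 h of the same course against hours after doxycycline, for the 4 probe sets of NFASC (left) and of CNTN1 (right); filled circles with solid lines are means of the 3 shOTX2 courses (bars: SD) and open squares with dashed lines are the control course. The shOTX2 lines of NFASC run below 0 at 24 h and lie between 1.21 and -1.09 at 96 h, whereas the shOTX2 lines of CNTN1 all peak at 48 h.

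NRCAM, a relative of NFASC at the node of Ranvier, had 94.7, 142.6 and 101.3 on 204105_s_at in the 3 shOTX2 courses at 8 h. It had 66.7, 68.7 and 72.8 at 16 h, followed by 79.5, 62.0 and 73.4 at 24 h. The signals were 46.8, 75.9 and 104.4 at 48 h, then 158, 207 and 196 at 96 h. The control course stayed between 40.4 and 54.6. The arrays at 16 and 24 h lay below those at 8 h with no overlap, and those at 96 h lay above all others. At 0 h the shOTX2 arrays ran from 49.9 to 108.6, and the lowest of these was below all arrays at 16 and 24 h.

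None of the NRCAM changes up to 48 h was called. At 48 h against 8 h, 204105_s_at gave -0.52 ± 0.24 (SE, adjusted p = 0.137) and 216959_x_at gave -0.58 ± 0.23 (adjusted p = 0.0750). With the course as a block both passed, with adjusted p of 0.0354 and 0.0408. On 216959_x_at the change also passed after median centring (adjusted p = 0.0339) and after quantile normalization (adjusted p = 0.0387). The control course changed by -0.60 on 216959_x_at, with 1.7 at 48 h against 10.9 at 8 h, and the difference between the arms there was 0.03 (adjusted p = 0.983). At 96 h against 0 h, 204105_s_at was higher by 1.01 ± 0.24, with means of 187 ± 25.8 and 88.7 ± 33.6 (SD, n = 3 each), whereas 216959_x_at gave 0.07 ± 0.23. A name ending in x marks probes that can match other genes.

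At 8 h, the shOTX2 arm exceeded the control array by 0.96 on NRCAM 204105_s_at (adjusted p = 0.396). Without course 1, whose actin ratio is close to that of the control course, this passed (adjusted p = 0.0125). The actin ratio was 2.07 and 1.91 in the 2 courses that were left, against 1.40 in the control course, and its part in the difference was not tested. In the whole table, shOTX2 against control at 8 h called 0 of 18 adhesion probe sets, beside 0.201% of all probe sets.

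CHL1, the fourth L1 family gene, never exceeded the array median on either of its 2 probe sets, whose highest signal in 24 arrays was 16.4. Of the 7 NCAM1 probe sets 1 was kept, 227394_at, at 3.0 to 30.5 in the shOTX2 arm and 6.6 to 35.2 in the control course. The other 6 never exceeded the array median. Of the 3 NCAM2 probe sets 1 was kept, 205669_at, at 18.4 to 47.7 in the shOTX2 arm and 4.5 to 23.3 in the control course. Neither gene was called at 48 h against 8 h, with changes of -0.25 ± 0.23 (SE, adjusted p = 0.485) for NCAM1 and 0.28 ± 0.20 (adjusted p = 0.363) for NCAM2.

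Counted over the family at 48 h against 8 h in shOTX2 cells, 8 of the 18 adhesion probe sets were called, beside 24.9% of all 33803 probe sets. They lay in 4 of 9 genes, and several were probe sets of the same gene. On the brightest probe set of each gene, 3 of 9 were called (CNTN1, CNTN2 and L1CAM), beside 29.7% of all 13903 genes. Of the 8, 6 were higher (CNTN1, CNTN2 and L1CAM) and 2 were lower (both NFASC). With the course as a block 11 were called, 6 higher and 5 lower, the added ones being NFASC 214799_at and both NRCAM probe sets. Calls rose over all 33803 probe sets too, from 8401 to 12381 with the block. Over all probe sets 13% were called higher and 11.9% lower. Since 2 of the 6 entered only through the late shOTX2 arrays, the count is a description. Among all probe sets, 4381 were higher and 4020 lower, and after centring each array on its median 3131 were higher and 5211 lower, with the median of all changes moved by -0.11. All 8 adhesion calls held under that centring, with their signs.

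The earlier steps gave fewer calls. At 24 h against 8 h, 2 of 18 were called, both lower and both NFASC, beside 2.75% of all probe sets in either direction and 1.25% lower. With the course as a block 4 were called, and over all probe sets the calls rose from 930 to 2852. At 16 h it was 0 of 18, beside 0.541%, and 3 with the block (CNTN1 211203_s_at higher and 2 NFASC probe sets lower). Over all probe sets the calls at 16 h rose from 183 to 1276 with the block. The 3 comparisons share the arrays at 8 h. The difference between the arms in the change from 8 to 48 h was called for 2 of 18, both CNTN2 and both higher, beside 5.8% of all probe sets in either direction and 3.27% higher. Since 206970_at, 1 of these 2, entered only through the late shOTX2 arrays, this count too is a description. In the control course, 48 and 96 h against 0 and 8 h called 0 of 18 and, over all probe sets, 0% by limma, with 2331 probe sets at an unadjusted p under 0.05. No other tool was run.

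The description at 96 h against 0 h, with no test, had a mean at least 2-fold different on 6 of 18 probe sets, beside 13.7% of all probe sets. Of these, 5 were higher, beside 8.19% of all, and 1 was lower, beside 5.56%. The 5 were both CNTN2 probe sets, L1CAM, NFASC 213438_at and NRCAM 204105_s_at, and the 1 was NFASC 243645_at. Nearest to the threshold of 2-fold, a log2 change of 1, were NRCAM 204105_s_at inside it at 1.01 and NFASC 230242_at outside it at -0.52, so none lay just outside. At 96 h against 48 h, 5 of 18 were at least 2-fold higher, and 0 lower, beside 1.13% of all probe sets at least 2-fold higher and 1.68% different in either direction. These were again both CNTN2 probe sets, L1CAM, NFASC 213438_at and NRCAM 204105_s_at, which share the arrays at 96 h with the description above. Of them, CNTN2 206970_at and L1CAM 204584_at passed the filter only through the shOTX2 arrays at 48 and 96 h. The genes were also chosen with the level at 96 h against 0 h known. Both counts of 5 are thus descriptions that were partly built in.

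CNTN2 and L1CAM varied at least 4-fold between group means of signal + 16, by 89.7-fold and 13.1-fold, and for these the genes with the most similar pattern were looked up. Over the 24 arrays, the highest Pearson r with CNTN2 was 0.989 for TP53INP1, a stress-induced p53 target, followed by 0.984 for STK39, a kinase of ion transporters, and 0.984 for TIAM2, an activator of Rac. TP53INP1 averaged 1836 ± 105 at 96 h and 1191 ± 146 at 48 h in shOTX2 cells, against 282 ± 32.1 at 0 h (SD, n = 3 each), and 437 at 96 h in the control course. The highest r with L1CAM was 0.983 for FHDC1, 0.978 for INSM1, a zinc-finger factor of neuronal and endocrine precursors, and 0.978 for GABBR2, a GABA-B receptor subunit. INSM1 averaged 455 ± 14.1 at 96 h and 33.9 ± 22.9 at 48 h, against 4.37 ± 5.66 at 0 h, and 15.3 at 96 h in the control course. CNTN2 and L1CAM correlated at r = 0.934 over 24 arrays, and at 0.224 over the 18 arrays that leave out shOTX2 at 48 and 96 h. These values describe arrays that share 4 courses and a common split into late and early, so they carry no p.

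Genes that work with the adhesion molecules were followed in 4 lists, on the brightest kept probe set of each gene. At 48 h against 8 h in shOTX2 cells, 29.7% of all 13903 such genes were called, with a median change of 0.03. The course as a block raised the calls over all probe sets from 8401 to 12381. The share of genes called with it was not counted, so the block counts of the lists have no such share beside them. Of the partners outside the cell, 3 of the 14 tested (18 listed) rose and 0 fell, with a median of 0.19, and 4 rose and 1 fell with the course as a block. PTPRG, a receptor phosphatase that binds contactins, had a signal of 91.3 ± 39.0 at 48 h against 28.1 ± 11.8 at 8 h (SD, n = 3 each), a change of 1.26 ± 0.27 (SE, adjusted p = 0.00173). APP, the amyloid precursor and a binding partner of contactins, had 829 ± 49.7 against 497 ± 54.7, a change of 0.73 ± 0.11 (adjusted p = 0.000106). ITGB1, the integrin beta-1 chain that L1CAM can bind, changed by 0.45 ± 0.091 (adjusted p = 0.00114).

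Of the partners inside the cell, 3 of 17 tested (19 listed) rose and 1 fell, with a median of 0.26, and 5 rose and 2 fell with the block. FYN, a kinase that works downstream of contactins and NCAM1, had 580 ± 25.1 at 48 h against 109 ± 19.2 at 8 h, a change of 2.26 ± 0.13 (SE, adjusted p = 1.28e-09). In the control course FYN had 104 at 48 h and 84.2 at 8 h, and the difference between the arms was called (2.01, adjusted p = 0.000180). ANK2, an ankyrin that binds L1 family tails, rose by 1.44 ± 0.12 (adjusted p = 1.64e-07), with 1029 ± 48.1 against 372 ± 43.7. SPTBN1, a beta spectrin of the membrane skeleton, fell: its signal was 1444 ± 98.9 at 48 h against 2822 ± 225 at 8 h, a change of -0.96 ± 0.11 (adjusted p = 3.3e-06).

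DCX, a microtubule protein of migrating neurons that binds neurofascin, rose by 2.77 ± 0.51 (SE, adjusted p = 0.000523), with a wide spread between courses (268 ± 256 at 48 h against 18.2 ± 13.9 at 8 h). Beside 7.82% of all genes, the difference between the arms was called for ANK2 (1.14, adjusted p = 0.00997) and SPTBN1 (-0.85, adjusted p = 0.0253) but not for DCX (3.08, adjusted p = 0.0872; with the block 0.00105). The calls for ANK2 and SPTBN1 were lost without course 2 and without course 3 (adjusted p from 0.0644 to 0.138), and that for SPTBN1 also with no variance trend (adjusted p = 0.0736). For PTPRG and ITGB1 the difference was not called (adjusted p = 0.410 and 0.453), nor for APP (0.77, adjusted p = 0.0530). With the block it was called for PTPRG (adjusted p = 0.0491) and APP (adjusted p = 0.00744).

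Of the genes that process the adhesion molecules, 1 of 5 tested (8 listed) rose and 2 fell, with a median of -0.29, and 2 rose and 3 fell with the block. Without course 2, course 3 or the other groups in the fit, 1 was called in each case. ADAM10, a protease that sheds L1CAM from the surface, had 2722 ± 175 at 48 h against 1184 ± 119 at 8 h, a change of 1.19 ± 0.090 (SE, adjusted p = 3.91e-08). Its difference between the arms was 1.03 (adjusted p = 0.00240, and 0.0507 without course 3). PIGK, a subunit of the enzyme that adds the lipid anchor, changed by -0.42 ± 0.11 (adjusted p = 0.00834), and ADAM17, a protease related to ADAM10, by -0.35 ± 0.11 (adjusted p = 0.0281).

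Of the other immunoglobulin-family adhesion genes, 2 of 20 tested (32 listed) rose and 4 fell, with a median of 0.09, and 5 rose and 4 fell with the block. Without course 3 the count was 3. CADM1, an adhesion molecule of synapses, had 2705 ± 263 at 48 h against 1219 ± 215 at 8 h, a change of 1.15 ± 0.13 (SE, adjusted p = 3.47e-06). It had 1177 at 48 h and 1245 at 8 h in the control course. NECTIN1 rose by 0.67 ± 0.17 (adjusted p = 0.00647). In the control course NECTIN1 also rose, with 213.4 at 48 h and 155.5 at 8 h. Those that fell were MCAM (-0.99 ± 0.29, adjusted p = 0.0171), KIRREL1 (-0.89 ± 0.20, adjusted p = 0.00314), NEGR1 (-0.87 ± 0.21, adjusted p = 0.00414) and NECTIN3 (-0.62 ± 0.15, adjusted p = 0.00459). From 8 to 48 h in the control course MCAM also fell, from 41.1 to 24.5. KIRREL1 went from 270 to 339.7 there, NEGR1 from 6.5 to 24.7 and NECTIN3 from 154.2 to 168.2. For NECTIN1 (0.25), MCAM (-0.50) and NECTIN3 (-0.74) the difference between the arms was not called. The difference between the arms was called for CADM1 (1.23, adjusted p = 0.00883) and NEGR1 (-1.73, adjusted p = 0.0187), and neither call held without course 2 or without course 3. KIRREL1 was not called for it (-1.20, adjusted p = 0.0935), and was with the block (adjusted p = 0.000873).

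**Figure D4:**
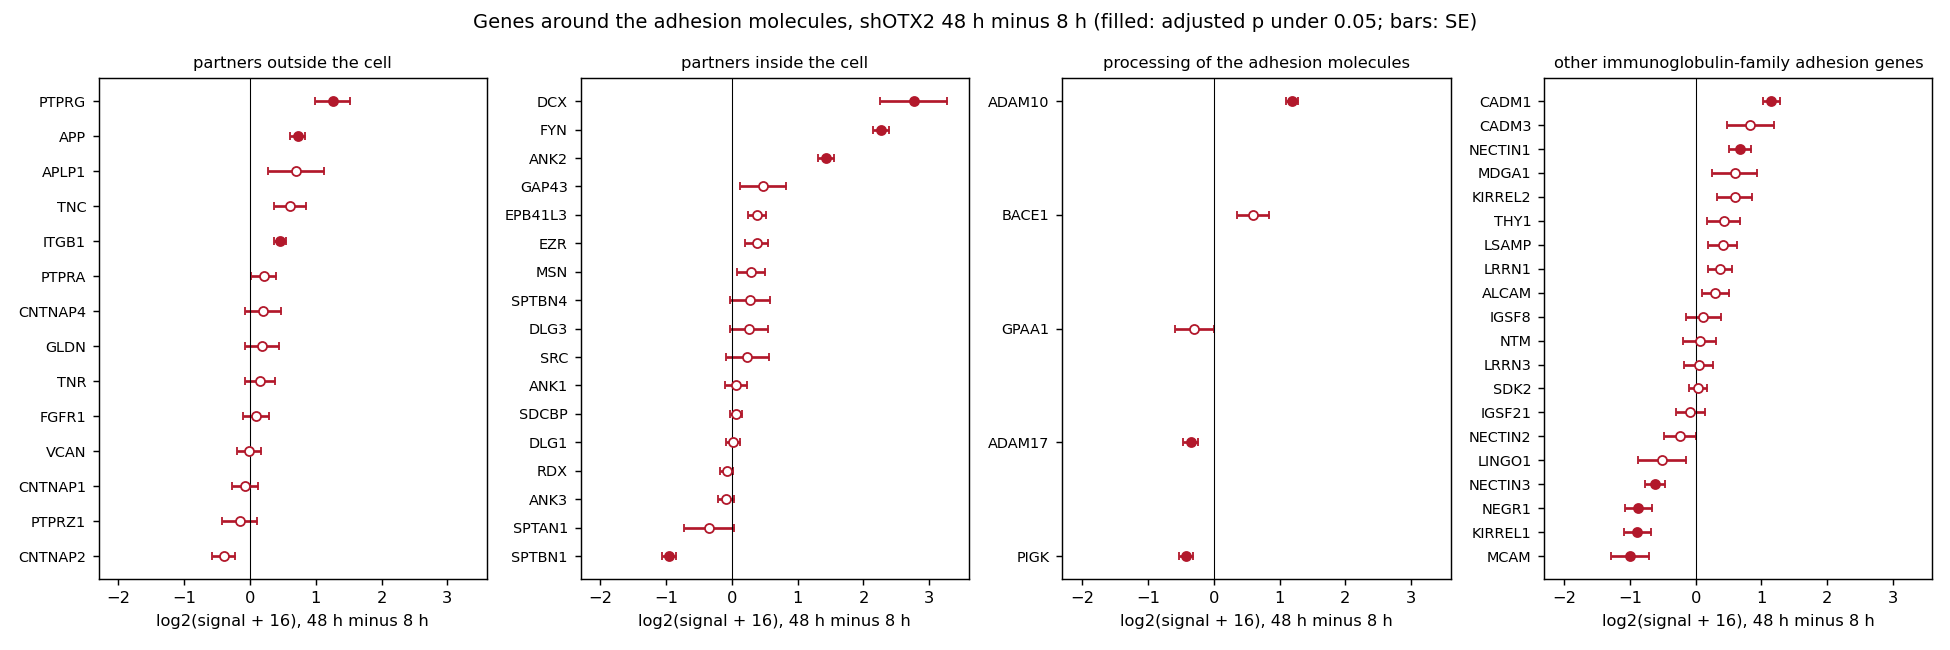
Change at 48 h against 8 h in the shOTX2 arm on the log2(signal + 16) scale for each tested gene of the 4 lists, 1 brightest probe set a gene, ordered within each list by the change; bars are the SE of the limma fit and filled circles have an adjusted p under 0.05. DCX at 2.77 and FYN at 2.26 lie farthest to the right, and MCAM at -0.99 and SPTBN1 at -0.96 farthest to the left.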

How the data were processed

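RNA of 24 D425 samples was hybridised to Affymetrix U133 Plus 2.0 arrays. The authors deposited 1 linear intensity per probe set and array, made with MAS5 and GCOS per the submitters' processing notes, which give no version. The trimmed mean of the deposited intensity (2% off each end) was 100.01 on every array, so each array was scaled as a whole. With arrays there is no depth to count, so precision is set by how many arrays a group holds.

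Names came from GEO's platform annotation, with symbols updated through the RefSeq table of GRCh38.p14: 41097 had 1 symbol, 1801 several and 11777 none. The 62 AFFX control probe sets were left out. Tested probe sets had a signal above the median of the array on 3 or more arrays. Values were log2(signal + 16), which understates changes of dim probe sets. limma 3.58.1 in R 4.3.3 was fitted to the 12 group means of all 24 arrays with a variance trend, with 12 residual degrees of freedom, all from the shOTX2 arm. Benjamini-Hochberg adjustment ran over all kept probe sets, and a call is an adjusted p under 0.05. The fit was tested on simulated data. Nothing states that courses were separate cultures beyond calling them independent, and p-values measure the spread between courses.

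The members, lists and tests were chosen with earlier results of these data known. Named were all 10 members, OTX2, up to 4 called genes each way per list with the largest change, and the 3 genes most like each member that varied at least 4-fold. The course number pairs arrays, since the labels call the courses independent: residuals about group means correlated in all 45 same-course pairs (r 0.17 to 0.60, median 0.26), and in 90 pairs of other courses r ran from -0.43 to 0.29 (median -0.31). Residuals cancel within each group, so positive r within courses forces negative r between them. The values between courses are thus no separate sign of pairing. The course as a replicate block was an alternative, with other pseudocounts, scalings, filters and samples.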

Additional observations from a re-analysis of the deposited data

Results flagged for a closer look

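The change from 8 to 48 h differed between the arms, by the limma test of that difference, for both CNTN2 probe sets and 6 genes of the lists. CNTN2 changed more in the shOTX2 arm than in the control course by 4.50 on 230045_at, higher in 3 of 3 courses. The difference was 3.01 on 206970_at, which passed the filter only through the shOTX2 arrays at 48 and 96 h, so it is no second support. FYN differed by 2.01, CADM1 by 1.23, ANK2 by 1.14 and ADAM10 by 1.03. SPTBN1 differed by -0.85 and NEGR1 by -1.73. NEGR1 had 8.27 ± 7.25 at 48 h against 27.2 ± 0.656 at 8 h in the shOTX2 arm (SD, n = 3 each), and 24.7 at 48 h against 6.5 at 8 h in the control course, so its difference rests partly on 1 dim control array a time. The control side of all 8 differences is 1 array at each time.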

How the results depend on the processing

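The alternatives were a pseudocount of 1 or 64, no filter, median centring, quantile normalization, the course as a replicate block, 1 probe set per gene, no variance trend, only the groups compared, and each shOTX2 course left out in turn (all shOTX2 arrays of that course). Of the alternative values for the adhesion probe sets at 48 h against 8 h, 198 kept their direction and side of the threshold, 5 gained the call, 3 lost it and 1 reversed, NFASC 213438_at, which ran from -0.28 to 0.22 when a course was left out and was 0.22 without course 1. All 21 values for the CNTN2 difference between the arms stayed called, 11 on 230045_at and 10 on 206970_at, which passed the filter only through the late shOTX2 arrays. Adhesion probe sets called at 48 h, 8 in all, came to 3 with 1 probe set per gene and to 5 to 8 without a course. At 24 h, 2 became 1 with a pseudocount of 64, no filter, quantile normalization, 1 probe set per gene or no variance trend, 4 with the replicate block, and 0 to 4 without a course. At 16 h, 0 became 3 with the replicate block and 0 to 1 without a course. The difference between the arms kept 1 of 2 with 1 probe set per gene. The arms at 8 h gave 0 to 1 without a course.

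Over all probe sets, the 8401 calls at 48 h became 12381 with the replicate block, 4346 with 1 probe set per gene, and 3813 to 9672 without a course. The 930 at 24 h became 2852 with the replicate block, 340 with only the groups compared, and 36 to 1230 without a course. The 183 at 16 h became 1276 with the replicate block, 109 with no variance trend, 4 with only the groups compared, and 0 to 315 without a course. The 1961 differences between the arms became 5609 with the replicate block, and 354 to 4214 without a course. The 0 of the control course became 13 with a pseudocount of 1, 11 with no filter, 159 with the replicate block, and 0 to 13 without a course. The 68 at 8 h between the arms became 112 with a pseudocount of 1, 123 with no filter, and 13 to 1657 without a course; the block cannot be fitted there. The 4645 probe sets 2-fold different at 96 h against 0 h became 8194 with a pseudocount of 1, 2254 with 64, and 2231 with 1 probe set per gene. Fewer probe sets are tested with 1 per gene, and fewer arrays enter without a course or with only the groups compared; the cause of the other moves was not tested. Of the named list genes at 48 h, 177 alternative values kept the call and 15 lost it, all with fewer arrays in the fit or, for MCAM, a pseudocount of 1. For signals near the array median the pseudocount sets the size of a log2 change.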
